A study of Mus musculus with 8 samples.

Results

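Chemokines are small secreted proteins that guide leukocytes along a concentration gradient, and each is read by G protein-coupled receptors on the migrating cell. They are named by the spacing of their first cysteines as CC, CXC, XC or CX3C ligands (Ccl, Cxcl, Xcl, Cx3cl), and their receptors are named to match (Ccr, Cxcr, Xcr, Cx3cr), with scavenging receptors under Ackr. In barrier tissues such as the conjunctiva, resident macrophages and dendritic cells both secrete chemokines and carry receptors for them. The genes described here were taken by name, as the rows of the count table that begin with one of these prefixes followed by a digit. Ccl2, Ccl8, Ccl12, Ccl24 and Ccr2 were left out. This gave 45 of 754 genes, 29 ligands (17 Ccl, 11 Cxcl and 1 Cx3cl) and 16 receptors (8 Ccr, 6 Cxcr, Xcr1 and Cx3cr1), and no Xcl or Ackr gene. Ccrl2 and Pf4 belong to the same family but carry other names.

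The counts came from 8 samples of female C57BL/6J mice, labelled as 10 weeks old, on the nCounter system, in which a barcoded probe pair binds each transcript and the barcodes are counted by imaging without amplification. Non-stressed (NS) mice were kept in humid air without a draft. The other mice underwent 5 days of desiccating stress (DS5), with scopolamine in the drinking water to suppress tear secretion and a fan-driven draft in dry air. From the CD11b+ conjunctival cells of each condition the study sorted MHCII+ cells and 3 MHCII-CD64+ populations, Ly6C-high (monocytes), Ly6C-inter and Ly6C-low, after removal of cells stained for NK1.1, Ly6G, CD3e or B220. Every condition and population is 1 sample, pooled from the conjunctivae of many mice, so no difference between 2 samples has a replicate check and no p-value is given.

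Summed over the 754 genes, MHCII+ cells gave 39677 counts in NS and 30335 in DS5, and the 6 MHCII- samples gave 2728 to 14201, while the positive control probes, spiked in at equal amounts, had geometric means of 858.5 to 1176.0. In these bulk samples fewer cells and less RNA per cell cannot be told apart. The negative control limit used below is the mean + 2 SD of the 8 probes without a target (NEG_) in the same sample, and it lay between 11.2 and 23.0 counts. H2-Aa, which encodes an MHCII chain, had 3419 and 2635 counts in MHCII+ cells and 12 to 22 elsewhere. Fcgr1, which encodes CD64, did not exceed the limit in any of the CD64+ samples, and Ly6c1 was highest not in monocytes (8 and 16 counts) but in DS5 Ly6C-inter cells (583 counts). Of the neutrophil markers measured, S100a9 alone exceeded the limit, in Ly6C-inter cells (16 counts in NS and 55 in DS5), and Ly6g had 1 or 2 counts in all 8 samples. The dendritic cell markers are given further below. Of the 2 NK cell markers measured, Klrk1 exceeded the limit in MHCII+ cells (32 and 21 counts), while Gzma had 1 to 5 counts and exceeded it in no sample. None of the B cell, mast cell, epithelial, endothelial or stromal markers did in any sample, although DS5 Ly6C-inter cells had the highest Fcer1a (18 counts) and Cdh1 (16 counts), and no T cell marker of the list was measured.

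Of the 45 genes, 17 exceeded the limit in at least 1 sample, 12 ligands and 5 receptors. In NS MHCII+ cells 16 members did so, and all 754 genes give a background of 38.6%, against 35.6% of the members. In DS5 MHCII+ cells it was 12 members (26.7%, background 28.2%). None of the members passed in NS monocytes (background 3.18%) and 2 passed in DS5 monocytes (background 6.90%). Ly6C-inter cells had 7 members above the limit in NS (background 14.6%) and 3 in DS5 (background 13.0%), and Ly6C-low cells had 6 in NS (background 12.7%) and 4 in DS5 (background 8.49%). The members' share was furthest from the background in DS5 Ly6C-inter cells, at 6.7%.

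**Figure D1:**
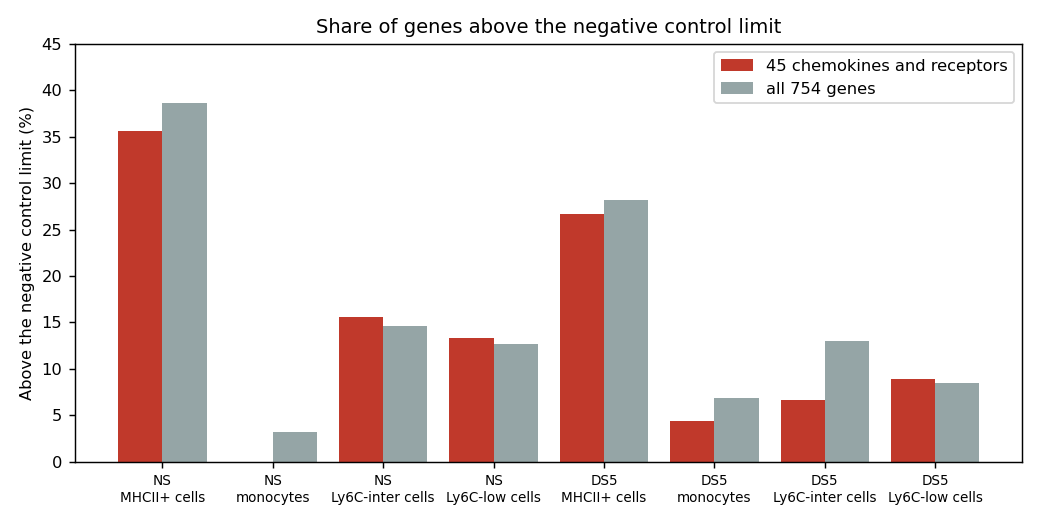
Share of genes above the negative control limit (y axis, percent) in each of the 8 samples (x axis), for the 45 chemokines and receptors (red) and all 754 genes (grey). Both bars are highest in MHCII+ cells, at 35.6% and 38.6% in NS.

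The members divided by their breadth. Ccl9 and Cxcl2 exceeded the limit in 7 samples, all but NS monocytes. Ccl6 did so in 5 samples and Ccl3, Ccl7 and Cxcr4 in 4. A further 8 members exceeded it in no MHCII- sample, among them Ccl4, Ccl17, Ccl22, Cxcl9, Cxcl10, Cxcl16 and Ccr7. For 16 of the 17 the highest deposited count was that of an MHCII+ sample, and the exception was Ccr3. Deposited counts are not scaled, and the totals of MHCII+ samples were 39677 and 30335, above those of all MHCII- samples. No share over all genes was taken for breadth or for the highest count, so neither sets the members apart.

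**Figure D2:**
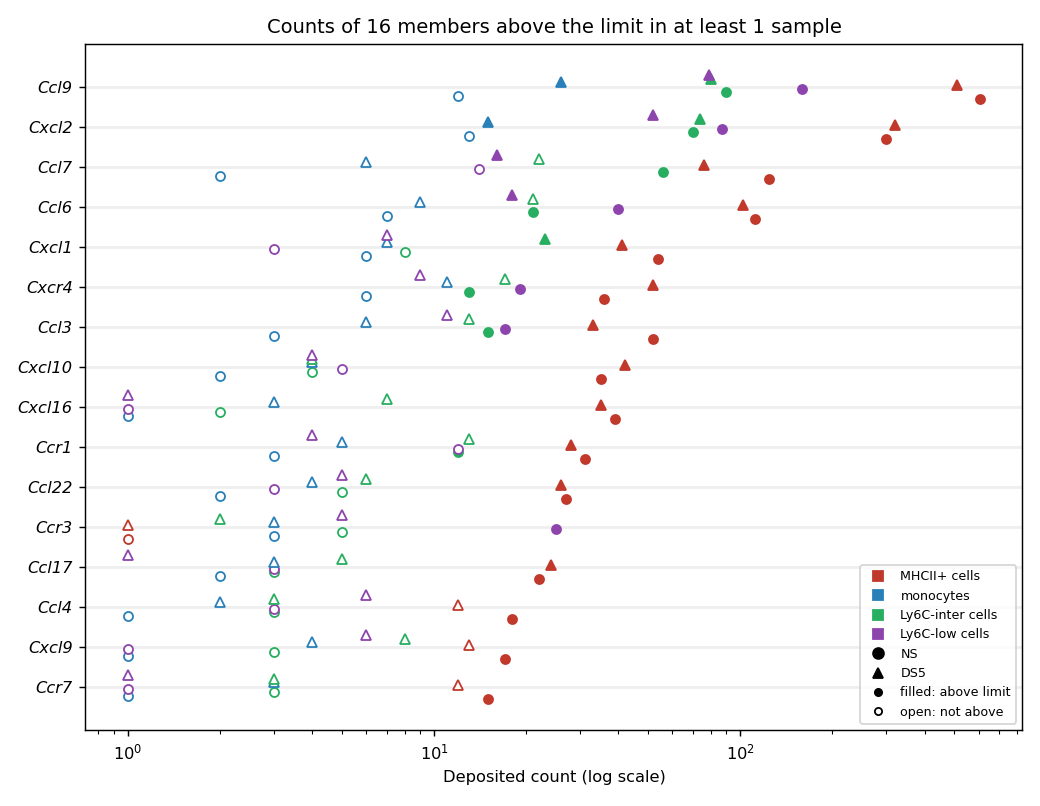
Deposited counts (x axis, log scale) of 16 of the members above the limit in at least 1 sample (y axis), with colour for the population, circles for NS and triangles for DS5. Filled symbols exceed the limit of their own sample. MHCII+ counts, from the samples with the highest totals, lie to the right for all of these but Ccr3. Ccr3 has its highest count, 25, in NS Ly6C-low cells.

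The promoters of a few members are shown for the letters of the motifs searched. The broadest CXC ligand, Cxcl2, and its neighbour Cxcl1 matched the same motif close to their start. Cxcl10 matched the other motif searched. NF-kB is a factor that activates many inflammatory genes through kappaB sites, and interferon-induced factors bind elements called ISRE. Each sequence is the 250 bases before the annotated start from RefSeq's mouse assembly GRCm38.p6, 5′ to 3′ on the gene's strand, with motif matches in capitals. Cxcl1 is chr5:90890995-90891244 (plus strand), Cxcl2 is chr5:90903649-90903898 (plus strand) and Cxcl10 is chr5:92348890-92349139 (minus strand).

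Cxcl1: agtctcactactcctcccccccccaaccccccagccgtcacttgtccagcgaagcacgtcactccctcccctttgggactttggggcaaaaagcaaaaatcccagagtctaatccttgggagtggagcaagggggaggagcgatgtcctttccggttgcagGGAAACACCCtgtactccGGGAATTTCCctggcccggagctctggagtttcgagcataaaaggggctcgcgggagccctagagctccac

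Cxcl2: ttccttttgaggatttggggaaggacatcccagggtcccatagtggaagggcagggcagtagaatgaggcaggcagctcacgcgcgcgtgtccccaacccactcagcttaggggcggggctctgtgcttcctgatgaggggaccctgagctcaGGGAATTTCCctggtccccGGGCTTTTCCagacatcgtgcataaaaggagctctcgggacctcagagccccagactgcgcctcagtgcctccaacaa

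Cxcl10: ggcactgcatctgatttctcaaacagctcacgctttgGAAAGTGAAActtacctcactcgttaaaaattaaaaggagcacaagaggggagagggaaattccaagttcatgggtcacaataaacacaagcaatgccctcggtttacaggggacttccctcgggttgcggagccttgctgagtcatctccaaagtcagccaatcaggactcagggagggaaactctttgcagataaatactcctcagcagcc

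The kappaB letters searched were 3 G, any 2 bases, 3 T and 2 C, and the ISRE letters were 3 T and a C, any 2 bases, and again 3 T and a C. The kappaB letters are a narrow form of such sites. Other forms, which the Cxcl10 sequence also holds, stay in lower case and were not counted. The motifs do not overlap in the sequences shown, and both strands were searched in RefSeq windows from 250 bases before to 50 bases after each start. A window was at hand for 34 of the 45 members. The kappaB letters were in 6 of these (Ccl9, Ccl20, Ccr3, Cxcl1, Cxcl2 and Cxcl3), or 17.6%, against 1.89% of 27025 genes, and the ISRE letters were in 3 (Ccl19, Cxcl10 and Cxcl14), or 8.82%, against 3.99%. Of the 6 genes with kappaB letters, Ccl20 and Cxcl3 did not exceed the limit in any sample. A match describes letters and is not evidence of binding.

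Ccl9 and Ccl6 are CC chemokines of mice that act on Ccr1. Ccl9 had 606 counts in NS and 510 in DS5 MHCII+ cells, 12 and 26 in monocytes, 90 and 80 in the Ly6C-inter sort and 159 and 79 in Ly6C-low cells. Ccl6 gave 112 counts in NS and 102 in DS5 for the MHCII+ sort, 7 and 9 in monocytes, 21 and 21 in the Ly6C-inter sort and 40 and 18 in Ly6C-low cells. Among the MHCII- samples both were highest in NS Ly6C-low cells, and neither exceeded the limit in NS monocytes.

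Cxcl1 and Cxcl2 attract neutrophils through Cxcr2. Cxcl2 gave 300 counts in NS and 321 in DS5 for the MHCII+ sort, 13 and 15 in monocytes, 70 and 74 in the Ly6C-inter sort and 87 and 52 in Ly6C-low cells. Cxcl1 had 54 and 41 counts in MHCII+ cells, 6 and 7 in monocytes, 8 and 23 in the Ly6C-inter sort and 3 and 7 in Ly6C-low cells. The 23 counts of DS5 Ly6C-inter cells were above their limit by less than 1 count and below the highest NEG_ probe of that sample, at 24. Cxcl3 and Cxcl5, ligands of the same receptor, stayed at 1 to 8 counts, and Cxcr2 itself had 1 to 4.

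Ccl3 and Ccl4 are inflammatory CC chemokines of macrophages, and Ccl3 acts on Ccr1. Ccl3 gave 52 counts in NS and 33 in DS5 for the MHCII+ sort, 15 and 13 in the Ly6C-inter sort, 17 and 11 in Ly6C-low cells and 3 and 6 in monocytes. Ccl4 had 18 and 12 counts in MHCII+ cells and 1 to 6 elsewhere. Ccl7, a ligand of Ccr2 that the naming rule kept, had 124 and 76 counts in MHCII+ cells, 2 and 6 in monocytes, 56 and 22 in the Ly6C-inter sort and 14 and 16 in Ly6C-low cells. Its NS Ly6C-inter count was the highest of the MHCII- samples.

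Ccl17 and Ccl22 are ligands of Ccr4 that are known from dendritic cells and alternatively activated macrophages. Ccl17 gave 22 counts in NS and 24 in DS5 for the MHCII+ sort and 1 to 5 in the MHCII- samples, and Ccl22 had 27 and 26 against 2 to 6. Cxcl16, a transmembrane ligand of Cxcr6, had 39 and 35 counts in MHCII+ cells and 1 to 7 elsewhere. The interferon-induced ligands of Cxcr3, Cxcl10 and Cxcl9, had 35 and 42 counts and 17 and 13 counts in MHCII+ cells, with 2 to 5 and 1 to 8 in the others. The dendritic cell markers of the list that were measured (Itgax, Flt3, Clec9a, Batf3, Irf4 and Irf8) summed to 80 and 70 deposited counts in MHCII+ cells. They summed to 12 to 20 in the MHCII- samples, whose totals were lower. Irf4 had 34 counts in both MHCII+ samples, and Flt3 had 5 and 7. Itgax, Irf4 and Irf8 exceeded the limit in NS MHCII+ cells, Irf4 alone in DS5 MHCII+ cells, and none of these markers in an MHCII- sample. The part of these markers in the chemokine counts was not tested.

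Among receptors, Cxcr4, the receptor of Cxcl12, gave 36 counts in NS and 52 in DS5 for the MHCII+ sort, 6 and 11 in monocytes, 13 and 17 in the Ly6C-inter sort and 19 and 9 in Ly6C-low cells. Ccr1, shared by several inflammatory CC ligands, had 31 and 28 counts in MHCII+ cells, 12 and 13 in the Ly6C-inter sort, 12 and 4 in Ly6C-low cells and 3 and 5 in monocytes. Ccr7, which guides mature dendritic cells to lymph nodes, had 15 and 12 counts in MHCII+ cells and 1 to 3 elsewhere. By sample, Cxcr4 exceeded the limit in 4 samples, Ccr1 in 3, and Ccr7 in NS MHCII+ cells alone. Ccl4, Ccr7 and Cxcl9 fell under the limit in DS5 MHCII+ cells with counts that still exceeded the lower NS limit.

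The 28 members above the limit in no sample had 1 to 15 counts. The 17 ligands were Ccl1, Ccl5, Ccl11, Ccl19, Ccl20, Ccl21a, Ccl25, Ccl26, Ccl27a, Ccl28, Cx3cl1, Cxcl3, Cxcl5, Cxcl11, Cxcl12, Cxcl13 and Cxcl14, with at most 10 counts (Ccl21a). The 11 receptors were Ccr4, Ccr6, Ccr8, Ccr9, Cx3cr1, Cxcr1, Cxcr2, Cxcr3, Cxcr5, Cxcr6 and Xcr1, with at most 15 (Ccr9, in DS5 Ly6C-inter cells). Cx3cr1, the fractalkine receptor by which monocytes and many tissue macrophages are recognised, had 10 and 14 counts in MHCII+ cells, 5 and 2 in monocytes, 1 and 2 in the Ly6C-inter sort and 10 and 1 in Ly6C-low cells. Its 14 counts in DS5 MHCII+ cells were short of that sample's limit of 15.3. These genes were not detectable at this depth, which does not show that they were absent.

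The position of the genes gave a further grouping that the rule did not use. In RefSeq's gene annotation, 44 members were found by symbol, and 29 of them lay in 9 clusters with at most 5 protein-coding genes between neighbours. In a cluster on chromosome 11, Ccl9, Ccl6, Ccl3 and Ccl4 exceeded the limit and their neighbour Ccl5 did not (1 to 9 counts). On chromosome 8 Ccl22 and Ccl17 flank Cx3cl1, and the outer genes exceeded the limit in both MHCII+ samples while Cx3cl1 had 1 to 4 counts. On chromosome 5 Cxcl1 and Cxcl2 exceeded it and Cxcl3 and Cxcl5 did not. On chromosome 9 Ccr1 and Ccr3 exceeded it, and Ccr9, Cxcr6 and Xcr1 of the same cluster did not.

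To compare samples, counts were scaled to equal totals over the 754 genes. A count at or under its limit was set to that limit. For a given scaling, and leaving counting error aside, the bounded log2 ratio then gives the least size of the difference in that direction. A member was called with a log2 ratio of at least 1.5 between DS5 and NS or of at least 2 between populations, the study's thresholds. The 95% intervals are exact binomial intervals of the 2 deposited counts and cover counting error only.

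The question for stress was whether chemokine expression changed within each population. In MHCII+ cells no member was called (background 0.133%). Among members above the limit in both samples, the highest log2 ratio of DS5 over NS was that of Cxcr4, at 0.92 (0.28 to 1.57), followed by Cxcl10 at 0.65 (-0.03 to 1.34), Ccl17 at 0.51 (-0.38 to 1.42) and Cxcl2 at 0.48 (0.25 to 0.72). Ccl7 was at -0.32 (-0.75 to 0.10). The median over the 45 members was 0.39 and over all genes 0.14. With the positive controls as the scale, Cxcr4 was at 0.53 (-0.11 to 1.19) and Cxcl2 at 0.10 (-0.13 to 0.33), and the intervals of Ccl7 at -0.70 (-1.13 to -0.28) and Ccl9 at -0.24 (-0.42 to -0.07) were below 0. The order of the members is the same under both scalings, and what moved was the position of 0. Across the 45 members the log2 counts of the NS and DS5 MHCII+ samples correlated at r = 0.92, the value found over all genes. The members share 2 libraries and are not replicates.

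In Ly6C-inter cells Ccl7 was called, with 56 counts in NS and 22 in DS5 (background 3.58%, 27 of 754 genes in either direction). Its log2 ratio of DS5 over NS was -2.60 (-3.39 to -1.87), and the bounded ratio with equal totals was -2.54, or 5.82-fold lower. The call held with the positive controls (-1.59 after the bound) and with Ppia and Rpl19 (-1.65). Ccl9 was at -1.43 (-1.88 to -0.97), Cxcl2 at -1.18 (-1.67 to -0.68) and Ccl6 at -1.26 (-2.20 to -0.31), while their deposited counts in NS and DS5 were 90 and 80, 70 and 74, and 21 and 21. On the positive controls these 3 ratios were -0.48, -0.23 and -0.31, and the intervals of Cxcl2 and Ccl6 then included 0. Ccl3, with 15 and 13 counts, was at -1.46 (-2.65 to -0.29) and on the positive controls at -0.51 (-1.71 to 0.66). The DS5 counts of Ccl3 and Ccl6 were under that sample's limit of 23.0, and their bounded ratios were -0.64 and -1.12. Cxcl1 moved the other way, from 8 counts to the borderline 23, at 0.27 (-0.94 to 1.64) and on the positive controls at 1.22 (0.00 to 2.59). The total of the DS5 sample was 14201 against 5948 in NS, and genes other than chemokines, such as Ly6c1, S100a9 and Itgam (161 counts against 21), were high in it. Their part in the result was not tested. A ratio of a pair of genes within a sample does not depend on scaling, and the Ccl7 count was 62.2% (NS) and 27.5% (DS5) of the Ccl9 count in the Ly6C-inter sort, a log2 difference of -1.17 (-2.09 to -0.30). It was 20.5% and 14.9% in MHCII+ cells (-0.46, -0.92 to 0.00) and 8.8% and 20.3% in Ly6C-low cells (1.20, -0.01 to 2.42), and 16.7% and 23.1% in monocytes (0.46, -2.29 to 3.99). These percentages use the deposited counts without the bound, and Ccl7 was not above the limit in DS5 Ly6C-inter cells, in NS Ly6C-low cells or in either monocyte sample. Ccl7 and Ccl9 were chosen for this ratio after their values were seen.

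In Ly6C-low cells no member was called (background 0.265%). Ccl9, from 159 counts to 79, was at -0.49 (-0.90 to -0.10), and Cxcl2, from 87 to 52, at -0.23 (-0.75 to 0.29). On the positive controls they were at -1.20 (-1.60 to -0.80) and -0.93 (-1.45 to -0.42). Ccr3, from 25 counts to 5, was at -1.81 (-3.55 to -0.40), but its bounded ratio of -0.48 was short of the threshold. In monocytes no member was called (background 0.133%). Ccl9 was the sole member with a bounded ratio there, from 12 counts to 26 (0.59, -0.45 to 1.71), with a bounded ratio of 0.26, and its interval included 0.

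**Figure D3:**
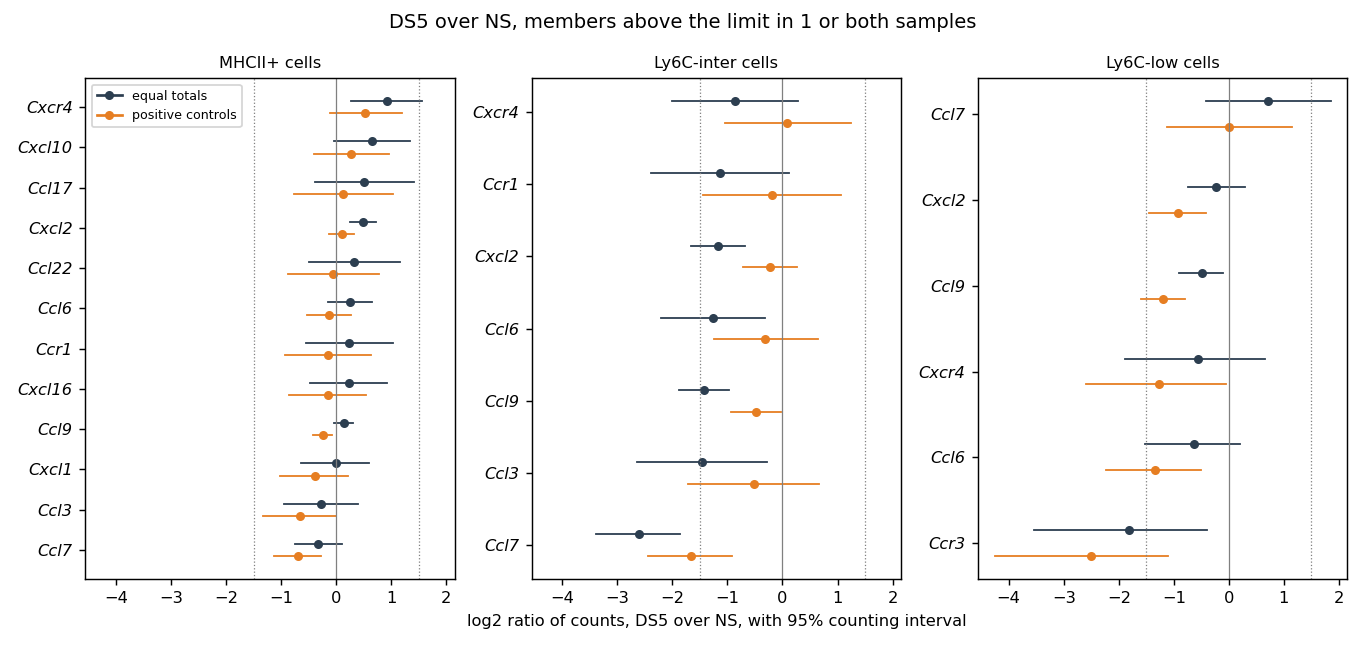
log2 ratio of DS5 over NS (x axis) of members above the limit in 1 or both samples (y axis), in MHCII+, Ly6C-inter and Ly6C-low cells. Points are ratios of the deposited counts after scaling to equal totals (dark) or to the positive controls (orange), bars are 95% counting intervals and dotted lines mark the threshold of 1.5. Ccl7 in Ly6C-inter cells lies beyond the threshold under both scalings, as does the unbounded ratio of Ccr3 in Ly6C-low cells, which rests on 5 counts in DS5.

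The comparison of populations asked which cells expressed more of a chemokine or receptor. No member was called higher in MHCII+ cells than in each of the 3 MHCII- populations, in NS (background 0.531%) or in DS5 (background 0.663%). In scaled counts the limit was 73.9 in NS monocytes and 3.8 in NS MHCII+ cells. Even Ccl9, the highest member with 606 counts in NS MHCII+ cells, reached a bounded ratio of 1.46 over NS monocytes. With equal totals no member could therefore be called in NS, and that result cannot say which cells expressed more. In DS5, with a monocyte limit of 47.7, members with low counts could not be called. Ccl9 had a ratio of 1.58 (1.23 to 1.94) over DS5 Ly6C-inter cells, but ratios of 0.01 (-0.31 to 0.35) over NS Ly6C-inter, -0.84 (-1.10 to -0.58) over NS Ly6C-low and -0.21 (-0.56 to 0.15) over DS5 Ly6C-low cells. Cxcl2 was at -0.64, -0.99 and -0.28 in these last 3 comparisons. Over DS5 monocytes, where both samples exceeded the limit, Ccl9 was at 1.35 (0.78 to 1.97) and Cxcl2 at 1.47 (0.73 to 2.32).

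In the opposite direction, Ccr3 was called higher in an MHCII- population than in NS MHCII+ cells (1 member, background 3.58%), and no member was in DS5 (background 4.11%). Ccr3 is the eotaxin receptor, best known from eosinophils. It had 25 counts in NS Ly6C-low cells against a limit of 15.9, 5 in DS5 Ly6C-low cells, 1 in each MHCII+ sample and 2 to 5 in the others, and the bounded ratio of NS MHCII+ over Ly6C-low cells was -3.93. With the positive controls it was -1.14, short of the threshold of 2. Alox15 (25 counts) and Siglecf (20 counts) were the other genes exceeding the limit in NS Ly6C-low cells and in no other sample, and both were picked out after their values were seen. Of 5 eosinophil markers, also chosen after the values were seen, Siglecf exceeded the limit and Epx, Prg2, Prg3 and Il5ra had 1 to 6 counts in that sample. The 5 summed to 29 counts there and to 7 to 19 in the others. Their part in the Ccr3 count was not tested. The eotaxin genes Ccl11 and Ccl26 had 1 to 6 counts throughout.

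To gain depth, the 3 MHCII- samples of each condition were also summed, a comparison added after the data were seen. A member was counted as higher or lower if its interval lay on one side of 0 and it exceeded the limit on that side. The sums were not bounded at the limit, so background of shallow samples enters these ratios. Cxcl16 was the member counted as higher in MHCII+ cells in NS (1 member, background 3.45%), with 39 counts against 4 and a log2 ratio of 1.83 (0.36 to 3.78), and it was not counted with background-subtracted totals. The 4 were counts of 1, 2 and 1, under the limits and at or near the smallest value measured. Over each single MHCII- population in NS, Cxcl16 had no bounded ratio. In DS5 it had 35 counts against 11 (1.22, 0.21 to 2.34) and was among 5 such members (background 6.76%), with Cxcl10 (42 against 12, 1.36, 0.40 to 2.42), Ccl9 at 1.01, Cxcl2 at 0.74 and Ccl6 at 0.64. With Ly6C-inter cells left out of the DS5 sum, with Ppia and Rpl19 or with background-subtracted totals, Ccl9 alone was counted.

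Lower in NS MHCII+ cells were 8 members, or 17.8% (background 11.1%), namely Ccl3, Ccl6, Ccl7, Ccl9, Ccr1, Ccr3, Cxcl2 and Cxcr4. Their log2 ratios ranged from -0.24 (Ccl9) to -1.53 (Cxcr4), leaving aside Ccr3, whose 1 count in MHCII+ cells was under the limit of 11.2 and may be a floor of the table, against 33 summed. None was lower in DS5 (background 7.56%). This direction depended on the scaling. The positive controls made 16 members (35.6%) higher in NS MHCII+ cells, against 37.8% of all genes, and left Ccr3 alone as lower. The median over all genes was 1.44 with the positive controls and -1.72 with equal totals. Equal totals compare each gene as a share of all counts of the sample, and the positive controls compare the amount captured from the sample. The totals include background, which weighs most in the shallow MHCII- samples. With background-subtracted totals, the unbounded log2 ratio of Ccl9 in NS MHCII+ cells over NS monocytes went from 1.80 to -0.28.

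**Figure D4:**
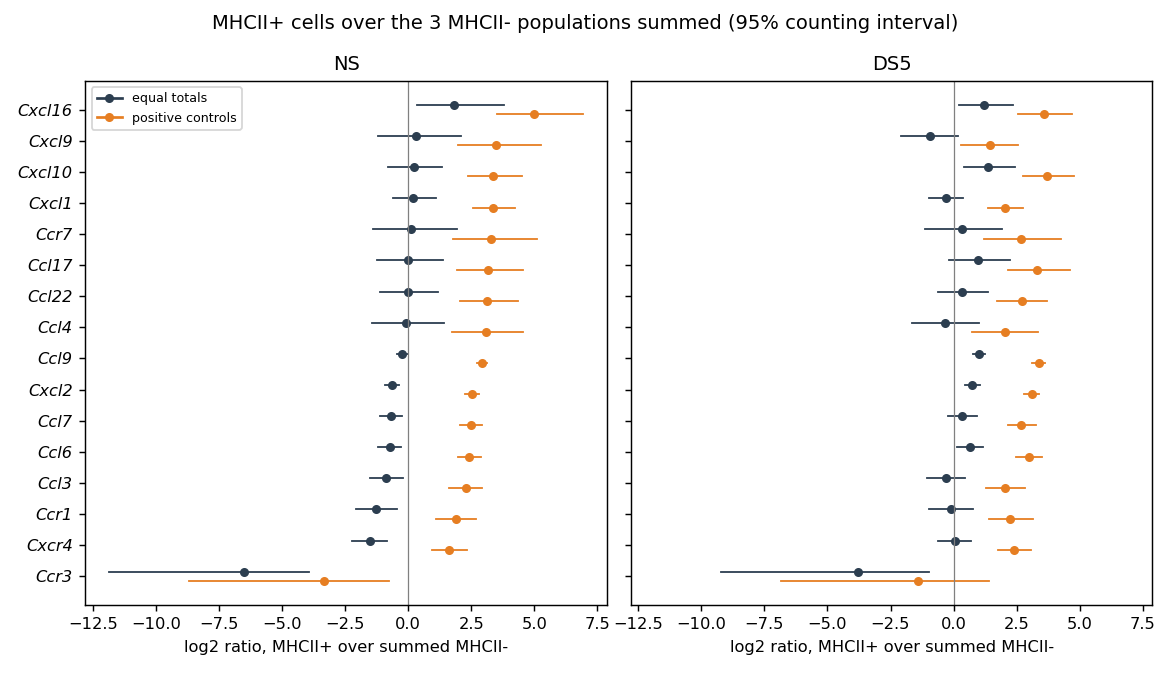
log2 ratio of MHCII+ cells over the 3 MHCII- populations summed (x axis), in NS and DS5, for 16 of the members above the limit somewhere (y axis). Dark points are scaled to equal totals, orange points to the positive controls, and bars are 95% counting intervals. In NS most members lie on opposite sides of 0 under the 2 scalings. The points of Cxcl16, Ccr7, Cxcl1, Cxcl9 and Cxcl10 lie above 0 under both, but of these only Cxcl16 has both intervals above 0. The Ccr3 points rest on 1 count in each MHCII+ sample.

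As a share of all counts, the 45 members took 4.07% (3.88 to 4.27, exact binomial) in NS and 4.72% (4.49 to 4.97) in DS5 MHCII+ cells. The share was 7.93% and 7.37% in Ly6C-low cells, 6.42% and 3.10% in the Ly6C-inter sort and 4.69% and 4.99% in monocytes. If each member had the mean count of the NEG_ probes, their share would be 10.72% and 6.01% in monocytes, 0.48% and 0.87% in MHCII+ cells, 3.22% and 2.65% in the Ly6C-inter sort and 4.95% and 6.52% in Ly6C-low cells. Both monocyte shares were thus below this background. The DS5 shares of Ly6C-low cells (7.37%) and the Ly6C-inter sort (3.10%) were little above it.

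The rest of the pathway was described with lists. Of the 5 ligands outside the naming rule that were measured, Ccl2, Ccl8, Ccl12, Ccl24 and Pf4, all exceeded the limit in both MHCII+ samples and in NS Ly6C-inter cells, and none did in monocytes. Ccr2 had 202 and 190 counts in MHCII+ cells and 15 in DS5 monocytes. Ccrl2, which binds chemerin without signalling, had 30 counts in each MHCII+ sample. Of 9 other chemoattractant receptors, C3ar1, C5ar1, Ptafr and Gpr183 exceeded the limit in NS MHCII+ cells and the first 3 in DS5. Of 6 signalling genes measured from a list of 33, all (Gnai3, Pik3cg, Vav1, Rgs1, Stat3 and Nfkb1) exceeded it in NS and 4 in DS5 MHCII+ cells. Pik3cg had 12 counts in NS against a limit of 11.2. Rgs1, which dampens signalling from these receptors, was the one of these 6 with its highest count outside MHCII+ cells, with 45 in NS Ly6C-low cells and 7 in DS5. Over all genes, 38.6% exceeded the limit in NS and 28.2% in DS5 MHCII+ cells, and 14.6% in NS Ly6C-inter cells. These short lists were not compared with those shares.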

How the data were processed

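The authors hybridized total RNA of the sorted cells to the nCounter Mouse Myeloid Innate Immunity V2 panel. The deposited values are raw counts for 768 probes (754 genes, 8 NEG_ and 6 POS_ probes) in 8 samples, whole numbers of at least 1, without normalization. The methods name nSolver and not its settings, and the annotation build is not given in the sources used here. Counts were scaled to equal totals (mean 13334.1), bounded at the negative control limit of each sample, and compared as log2 ratios with exact binomial (Clopper-Pearson) intervals, which cover counting error only. Unlike a floor of 1, the bound keeps a count at or under the limit of a shallow sample from being scaled up into a call as higher there. Counts just above the limit were still scaled up without removal of background. Among them are the 25 counts of Ccr3 in NS Ly6C-low cells, where the limit was 15.9. The bound was not applied to the intervals, to the ratios given with them or to the summed MHCII- samples. With 1 sample per group, no test of a difference between 2 groups was possible, and a model of an effect shared across populations was not run. The code was tested on simulated data.

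Named were the members above the limit in at least 1 sample, with their counts, and the others by range. A gene that enters the counts of members is not reported here. Members and lists were chosen with earlier results of these data known. Alternatives were scaling to the POS_ probes, to Ppia and Rpl19 or to background-subtracted totals, no bound, mean + 3 SD, the highest NEG_ probe and a threshold of 1. Python 3.11.15, numpy 2.4.6, scipy 1.17.1 and matplotlib 3.10.9 were used.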

Additional observations from a re-analysis of the deposited data

How the results depend on the processing

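Both MHCII+ samples kept 16 and 12 members above the limit at mean + 3 SD and above the highest NEG_ probe. In MHCII- samples, mean + 3 SD left 5 members in NS Ly6C-inter, 4 in NS Ly6C-low, 2 in DS5 Ly6C-inter cells and 1 in DS5 monocytes, and the highest NEG_ probe gave 2 in NS monocytes, 2 in DS5 Ly6C-inter and 6 in DS5 Ly6C-low cells. The call of Ccl7 in Ly6C-inter cells held under each alternative run for it. There 2 members were called with background-subtracted totals (3.85% of all genes) and 4 at a threshold of 1 (7.96%). Without the bound 1 member (Ccr3) was called in Ly6C-low cells (1.19%). Higher in an MHCII- population than in NS MHCII+ cells were 0 members with the positive controls (0.265% of all genes), 2 with Ppia and Rpl19 (5.04%), 3 with background-subtracted totals (7.69%) and 6 at a threshold of 1 (9.81%). Higher in DS5 MHCII+ cells than in each MHCII- population were 4 with the positive controls (Ccl6, Ccl7, Ccl9 and Cxcl2, 5.17%).

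For the summed MHCII- samples, members higher in NS MHCII+ cells numbered 16 with the positive controls (37.8% of all genes) and 0 with background-subtracted totals (1.59%), and members lower numbered 1 with the positive controls (0.663%). In DS5, 12 were higher with the positive controls (27.3%). Ccl9 was the 1 member higher with Ppia and Rpl19 (2.52%), with background-subtracted totals (2.92%) and without Ly6C-inter cells (3.05%), and 1 (Cxcl1) was lower with Ppia and Rpl19 (11.8%) and with background-subtracted totals (11.5%). With the positive controls, 7 of the 8 members lower in NS MHCII+ cells (Ccr3 excepted) turned to higher. No fit with a replicate block was made, since each group holds 1 sample, and pairing NS with DS5 across the 4 populations was not run. Low counts limit every ratio with monocytes.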
